A study of Homo sapiens with 20 samples.

Results

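The mRNAs of 7 genes of cholesterol synthesis, HMGCS1, IDI1, FDFT1, SQLE, DHCR7, INSIG1 and SREBF2, were followed in RNA granules and exosomes. They were chosen by symbol, for their place in the pathway, from the 62266 genes in the data. Earlier results of these data were known when they were chosen. All 7 passed the filter on low counts in every comparison. The 20 libraries came from HEK293 cells, an established human embryonic kidney line, and formed 4 groups of 5: granules of HD-induced cells (HD granules), granules of control cells (control granules), exosomes of HD-induced cells (HD exosomes) and exosomes of control cells (control exosomes). HD stands for Huntington's disease; the sources used here say neither how it was induced nor what the control cells received. Granules are membraneless bodies of RNA and protein, prepared here as cytoplasmic granule cores, and exosomes are small vesicles that cells release. The submitters call the replicates biological, and the design asks how the RNA content of both compartments compares in normal and Huntington cells.

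Cells build cholesterol from acetyl-CoA through mevalonate, isoprenoids and squalene, and most enzymes of the later steps sit in the membrane of the endoplasmic reticulum (ER). The pathway is set by SREBP-2, the product of SREBF2, a transcription factor held in the ER membrane by SCAP and by INSIG proteins while sterols are plentiful. When sterols are scarce, SREBP-2 is carried to the Golgi, cut free, and activates the genes of nearly every step, its own gene and INSIG1 included. Cholesterol synthesis in brain cells has long been studied in Huntington's disease.

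Reads estimated for named genes, in mega-reads (M), came to 17.7 to 23.9 M in HD granules and 11.4 to 24.5 M in control granules, against 5.30 to 9.04 M in control exosomes. HD exosomes 1, 2, 3 and 5 held 7.41, 1.94, 1.33 and 3.00 M. HD exosome 4 held 713 reads, of which 1 fell on FDFT1 and 0 on the other 6 genes, and a count of 0 there allows up to 0.421% of its reads (3 counts, for counting error only). Its levels are therefore not given below, although the fits that use HD exosomes include it. In HD exosome 2, 86.6% of all reads fell on entries without a gene name. HD granule 3 stood apart from its group: its log2 levels correlated at 0.869 with the group mean, against 0.962 to 0.977 for the other 4 HD granule libraries. Outside HD exosome 4, the reads behind 1 level ran from 37.0 (DHCR7 in HD exosome 2, a counting error of 16.4%) to 11022 (IDI1 in HD granule 2).

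The HEK293 marker list had reads in every library given levels, with 7 of 8 genes in all HD granule libraries, 7 of 8 in all control granule libraries, 4 of 8 in all HD exosome libraries and 7 of 8 in all control exosome libraries; NEFM was at 0 in HD granules. Its summed level was 70.1 to 148 CPM in HD granules and 76.4 to 88.5 in control granules, against 101 to 174 in HD exosomes and 139 to 189.5 in control exosomes. CPM are counts per 1000000 reads on named genes, scaled between libraries with TMM (trimmed mean of M values). The sums of these genes did not overlap between the compartments in control cells and did in HD-induced cells. Of lists for other cell types, the erythroid list, with AHSP at 0 in all groups, summed to 6.22 to 103 CPM in HD granules and 11.5 to 37.7 in control granules, against 90.8 to 2138 in HD exosomes and 77.8 to 275 in control exosomes. The keratinocyte list summed to 1.47 to 6.53 CPM in HD granules and 1.38 to 2.73 in control granules, against 20.7 to 972 in HD exosomes and 7.87 to 101 in control exosomes. The leukocyte and platelet list, with PPBP at 0 in all groups, summed to 1.67 to 4.92 CPM in HD granules and 2.42 to 5.26 in control granules, against 10.2 to 38.3 in HD exosomes and 4.93 to 14.5 in control exosomes. The liver and serum list stayed between 0.462 and 4.56 CPM in every library given levels. The part of these markers in the results below was not tested. These are bulk preparations of HEK293 cells, and the source of the reads on genes of other cell types was not tested. Levels in them cannot tell fewer cells from less RNA per cell.

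The first comparison set granules against exosomes within each state of the cells. In control cells the pathway split. The mRNAs of IDI1 and SQLE were higher in granules, at 2.01-fold and 1.35-fold, and those of FDFT1, DHCR7 and SREBF2 were lower, at 0.399-fold, 0.417-fold and 0.490-fold. HMGCS1 and INSIG1 were not called. Calls were made with edgeR's quasi-likelihood test where the p, adjusted by Benjamini-Hochberg over all genes tested, was below 0.05. By that rule 5 of the 7 genes were called, 2 higher and 3 lower, while 62.4% of the 14777 genes tested were called (30.0% of all genes tested as higher and 32.5% as lower), so a call by itself does not set these genes apart. The median log2 fold change of the 7 was -0.24, against -0.02 for all genes tested. The 5 control granule libraries lay wholly above or below the 5 control exosome libraries for 4 of the 7 genes (FDFT1, SQLE, DHCR7 and SREBF2), as they did for 49.1% of all genes.

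In HD-induced cells IDI1 was again higher in granules, at 3.03-fold, and FDFT1 lower, at 0.445-fold, and the other 5 genes were not called. Calls were rarer there, with 17.7% of 14431 genes called (11.9% of all genes tested as higher and 5.77% as lower). The median of the 7 was 0.20, against 0.17 for all genes. With relative log expression factors in place of TMM the median of all genes moved to 0.32 in HD-induced cells and to 0.09 in control cells, and the calls in HD-induced cells split into 2459 higher and 577 lower, against 1720 higher and 833 lower with TMM. IDI1, FDFT1, SQLE, DHCR7 and SREBF2 kept their direction and call in control cells under either scaling. Removing the trend with GC content ended the calls of SQLE, which turned to -0.15, and SREBF2, and limma on TPM ended those of IDI1 and SQLE, as described further on. Granule and exosome libraries did not overlap for FDFT1 and SQLE in HD-induced cells, a pattern seen for 17.4% of all genes.

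**Figure D1:**
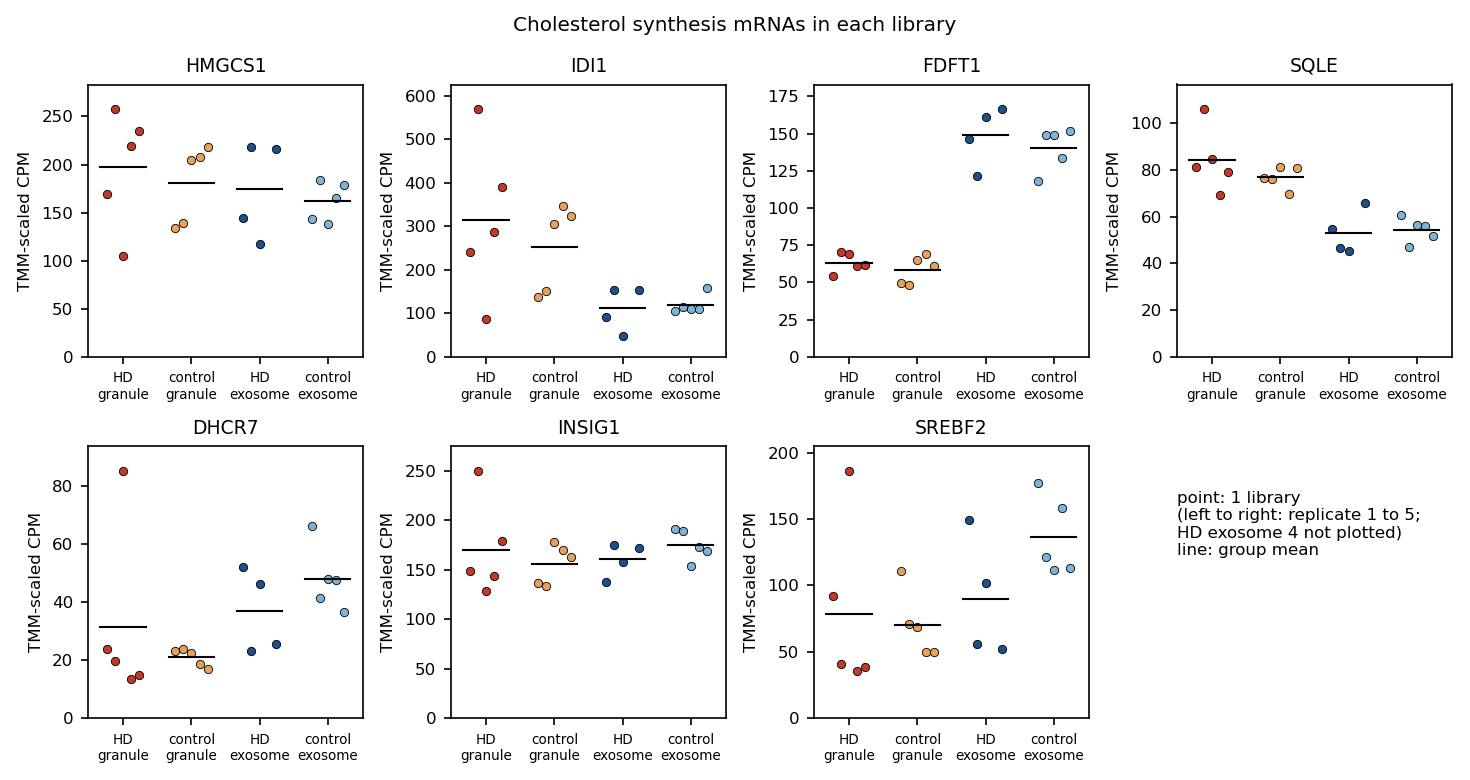
TMM-scaled CPM of the 7 mRNAs (vertical axes, from 0) in HD granules, control granules, HD exosomes and control exosomes; points are libraries in replicate order, lines are group means, and HD exosome 4 is not plotted. FDFT1 averages 63.4 and 58.6 CPM in HD and control granules against 149 and 140.3 CPM in HD and control exosomes, while HD granule 3 is the highest granule library for DHCR7 and SREBF2 and the lowest for IDI1.

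SREBF2 (chromosome 22, 41833105 to 41907305, build GRCh38.p14 for all positions of genes) encodes the transcription factor of the pathway. In HD granules 1 to 5 its mRNA stood at 92.2, 40.9, 186, 35.5 and 38.3 CPM and in control granules at 111, 70.6, 69.0, 49.9 and 49.7 CPM. In HD exosomes 1, 2, 3 and 5 it stood at 149.5, 56.04, 102 and 52.2 CPM and in control exosomes at 177, 122, 112, 158 and 113 CPM. All control granule libraries lay below all control exosome libraries, whereas HD granule 3 lay above every HD exosome library. The log2 fold change, granules over exosomes, was -1.03 ± 0.23 in control cells (SE, 5 and 5 libraries, adjusted p = 0.00229) and -0.11 ± 0.50 in HD-induced cells (adjusted p = 0.903). Without HD granule 3 the value in HD-induced cells was -0.75 ± 0.39 (adjusted p = 0.141).

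DHCR7 (chromosome 11, 71427287 to 71449043) encodes the reductase that turns 7-dehydrocholesterol into cholesterol at the end of the pathway. Its mean level was the lowest of the 7 in each group. HD granules 1 to 5 held 23.9, 19.7, 85.1, 13.6 and 14.8 CPM and control granules 23.1, 23.8, 22.6, 18.6 and 16.9 CPM. HD exosomes 1, 2, 3 and 5 held 51.99, 23.3, 46.1 and 25.6 CPM and control exosomes 66.2, 41.4, 48.04, 47.7 and 36.5 CPM. As for SREBF2, the control groups do not overlap and HD granule 3 exceeds every exosome library, by a wide margin over the other HD granules. The log2 fold change was -1.26 ± 0.18 in control cells (adjusted p = 8.23e-05) and -0.16 ± 0.51 in HD-induced cells (adjusted p = 0.857). Without HD granule 3 it was -0.99 ± 0.33 in HD-induced cells and passed the test (adjusted p = 0.0249).

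Because SREBF2 and DHCR7 were both lower in control granules and both highest in HD granule 3, the 250 bases before a RefSeq start of each are shown (GRCh38.p14), 5′ to 3′ on the strand of the gene. Capitals mark matches, on either strand, to the letters TCACNCCAC (sterol regulatory element, where SREBPs bind), CCAAT (NF-Y) and GGGCGG (Sp1); none of the 3 motifs lies within another, and neighbouring matches of 1 motif can overlap.
SREBF2, chr22:41832855-41833104, plus strand: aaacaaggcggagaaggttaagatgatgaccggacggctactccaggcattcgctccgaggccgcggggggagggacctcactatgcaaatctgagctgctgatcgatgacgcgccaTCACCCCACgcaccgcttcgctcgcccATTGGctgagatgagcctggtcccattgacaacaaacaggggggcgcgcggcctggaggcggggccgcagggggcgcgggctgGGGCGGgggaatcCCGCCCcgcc
DHCR7, chr11:71448394-71448643, minus strand: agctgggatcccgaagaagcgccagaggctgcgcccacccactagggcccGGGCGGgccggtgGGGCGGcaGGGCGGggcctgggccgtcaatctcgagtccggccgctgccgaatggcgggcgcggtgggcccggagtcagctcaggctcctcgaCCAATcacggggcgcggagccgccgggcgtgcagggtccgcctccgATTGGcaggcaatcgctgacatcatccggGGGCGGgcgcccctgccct
The SREBF2 window holds 1 match to the sterol regulatory element, which 0.883% of 35116 promoter windows of this length hold. Of the 9 windows listed for 5 of the 7 genes, 1 held that motif, 6 held CCAAT and 8 held GGGCGG, and the shares of all windows were 32.0% for CCAAT and 42.6% for GGGCGG. The other DHCR7 window, chr11:71449044-71449293, held 0 matches to each of the 3 motifs. Any link between these sequences and the levels was not tested. No window was used for SQLE or FDFT1.

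INSIG1 (chromosome 7, 155297878 to 155310235) encodes the ER protein that anchors SCAP and holds SREBP-2 back. Its mRNA stood at 149, 250.3, 129, 144 and 179.7 CPM in HD granules 1 to 5 and at 137, 133, 178, 169.8 and 163 CPM in control granules. HD exosomes 1, 2, 3 and 5 held 138, 176, 158 and 172 CPM and control exosomes 192, 189, 154, 173 and 169 CPM. The groups overlap in both states, and the log2 fold change was -0.24 ± 0.11 in control cells (adjusted p = 0.0791) and 0.20 ± 0.31 in HD-induced cells (adjusted p = 0.689). In control cells the 95% interval ran from -0.48 to 0.00, so a fall of up to 0.48 on the log2 scale lies within it.

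HMGCS1 (chromosome 5, 43287470 to 43313412) encodes the cytosolic synthase that makes HMG-CoA, an early intermediate of the pathway. Its mRNA stood at 169, 257, 105, 219.7 and 234 CPM in HD granules 1 to 5 and at 134, 139, 205, 208 and 219 CPM in control granules. The levels were 144, 218, 117 and 217 CPM in HD exosomes 1, 2, 3 and 5 and 143, 184, 138, 165 and 178 CPM in control exosomes. All 4 groups overlap, with log2 fold changes of 0.09 ± 0.15 in control cells (95% interval -0.24 to 0.43, adjusted p = 0.614) and 0.30 ± 0.36 in HD-induced cells (adjusted p = 0.591).

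IDI1 (chromosome 10, 1039152 to 1056704) encodes the isomerase that interconverts both isoprenoid building blocks, isopentenyl and dimethylallyl diphosphate. HD granules 1 to 5 held 241, 568, 87.3, 287 and 391 CPM and control granules 136, 151, 305, 346 and 322 CPM. The levels were 91.1, 152, 48.5 and 153 CPM in HD exosomes 1, 2, 3 and 5 and 104, 115, 109.8, 110.1 and 159 CPM in control exosomes. IDI1 thus varied widely among granule libraries, 6.51-fold among HD granules and 2.54-fold among control granules, and in both states the lowest granule libraries lay among the exosome libraries. The log2 fold change was 1.01 ± 0.26 in control cells (adjusted p = 0.00454) and 1.60 ± 0.50 in HD-induced cells (adjusted p = 0.0407). In HD-induced cells this call was lost when any 1 of HD exosomes 1 to 4 or of HD granules 1, 2, 4 and 5 was left out, with values of 1.26 to 1.80 and adjusted p from 0.0567 to 0.113. The IDI1 pseudogenes IDI1P1, IDI1P2 and IDI1P3 held 24, 6 and 0 reads over all libraries, and the neighbouring paralog IDI2 held 58.

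FDFT1 (chromosome 8, 11795582 to 11839298) encodes squalene synthase, the first enzyme committed to sterols. HD granules 1 to 5 held 54.2, 70.7, 69.4, 61.2 and 61.5 CPM and control granules 49.3, 48.2, 64.9, 69.2 and 61.2 CPM. HD exosomes 1, 2, 3 and 5 held 146, 122, 161 and 166 CPM and control exosomes 118, 149, 149, 134 and 152 CPM. Every granule library lay below every exosome library given a level, HD granule 3 included. The log2 fold change was -1.33 ± 0.13 in control cells (adjusted p = 3.76e-06) and -1.17 ± 0.23 in HD-induced cells (adjusted p = 0.00699).

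SQLE (chromosome 8, 124998505 to 125022283) encodes squalene epoxidase, which follows FDFT1 and is a rate-limiting step of the sterol branch. HD granules 1 to 5 held 81.3, 106, 84.8, 69.4 and 79.2 CPM and control granules 76.8, 76.3, 81.3, 69.9 and 80.9 CPM. The levels were 54.8, 46.6, 45.5 and 65.8 CPM in HD exosomes 1, 2, 3 and 5 and 60.8, 46.9, 56.5, 55.9 and 51.5 CPM in control exosomes. Every granule library lay above every exosome library given a level, the reverse of FDFT1. The log2 fold change was 0.43 ± 0.11 in control cells (adjusted p = 0.00356) and 0.73 ± 0.26 in HD-induced cells (adjusted p = 0.0672). With the replicate number as a block, the value in HD-induced cells was 0.79 ± 0.29 and passed the test (adjusted p = 0.0292), 3 of the 7 genes were called and so were 4006 genes in all, against 2553 without the block. It also passed without HD granule 3, at 0.69 ± 0.25 (adjusted p = 0.0342).

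Base composition went with some of these differences. The median GC content of the genes' transcripts was 40.8% for SQLE, 41.8% for HMGCS1, 42.5% for IDI1, 46.4% for INSIG1, 48.8% for FDFT1, 57.1% for SREBF2 and 57.6% for DHCR7. The 2 genes higher in control granules were among the 3 with the lowest GC content, and SREBF2 and DHCR7 had the highest. When the trend of counts with GC content was removed from each library, FDFT1 was at -1.17 ± 0.11 in control cells (adjusted p = 1.1e-06), and IDI1 and DHCR7 stayed called at smaller sizes, 0.57 ± 0.21 (adjusted p = 0.0304) and -0.36 ± 0.11 (adjusted p = 0.0137). SREBF2 at -0.18 ± 0.15 (adjusted p = 0.290) and SQLE at -0.15 ± 0.14 (adjusted p = 0.390) were no longer called, while INSIG1 at -0.34 ± 0.11 (adjusted p = 0.012) and HMGCS1 at -0.40 ± 0.11 (adjusted p = 0.00663) passed the test as lower in granules. The directions of SQLE and HMGCS1 therefore depend on whether the GC trend is kept. In a limma fit on log2(TPM + 1), which scales by the deposited TPM alone, FDFT1, DHCR7 and SREBF2 stayed called as lower, INSIG1 at -0.68 (adjusted p = 0.0135) was called as lower too, and IDI1 at 0.47 (adjusted p = 0.196) and SQLE at 0.49 (adjusted p = 0.0569) were not called. In HD-induced cells that fit called neither FDFT1, at -2.01 (adjusted p = 0.649), nor IDI1, at 2.19 (adjusted p = 0.594). It gave HD exosome 4 the same weight as the other libraries. There 1 read put FDFT1 at 938 TPM, against 3.05 to 53.3 TPM in the other HD exosomes, and IDI1 stood at 0 TPM. How far the values of this fit in HD-induced cells rest on that library was not tested.

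**Figure D2:**
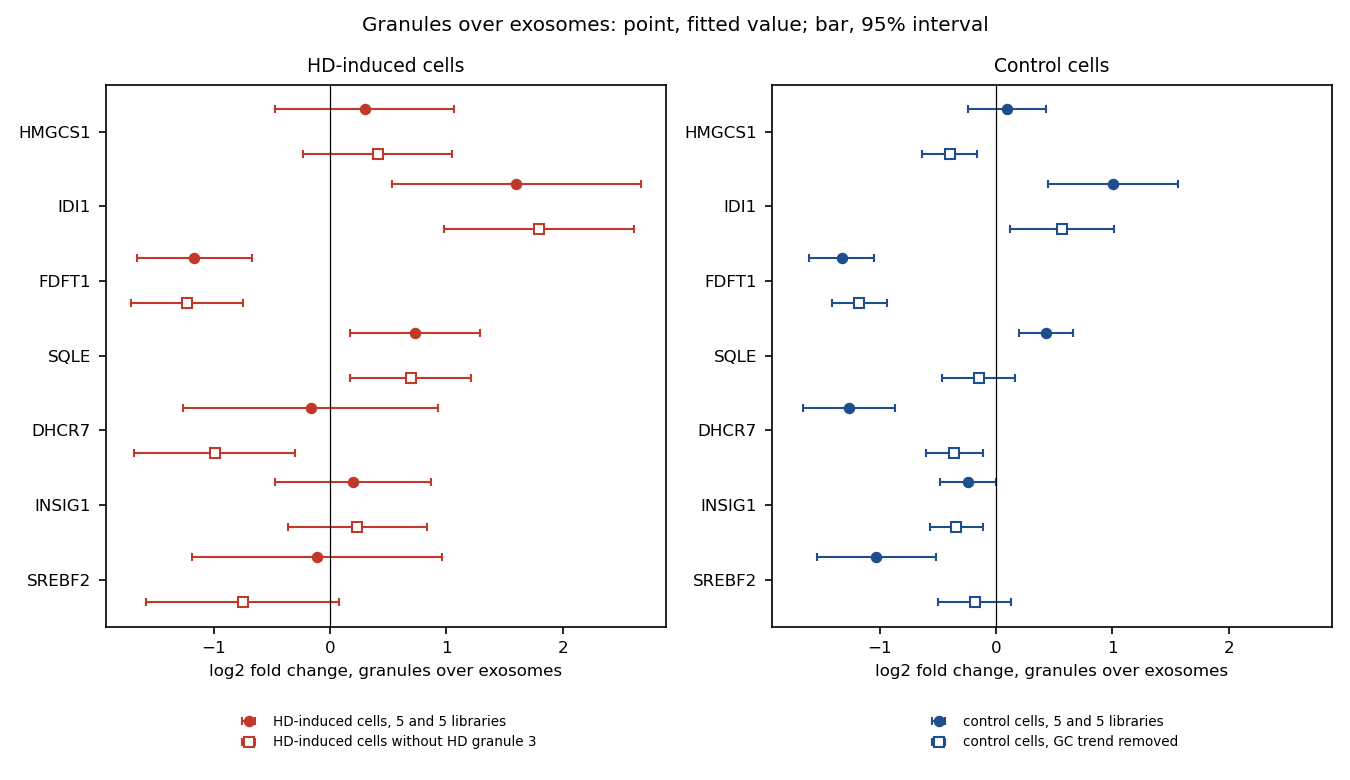
Log2 fold change of each mRNA, granules over exosomes (horizontal axis), with 95% intervals; left, HD-induced cells with all libraries (filled) and without HD granule 3 (open); right, control cells without correction (filled) and with the GC trend removed (open). FDFT1 stays between -1.33 and -1.17 in all 4 fits, whereas DHCR7 in HD-induced cells is at -0.16 with HD granule 3 and at -0.99 without it.

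Relative to each other, the levels changed order between the compartments. Levels of different genes were compared as TPM (transcript abundance corrected for length and scaled to a fixed total per library). IDI1 was the most abundant of the 7 in 4 of 5 HD granule libraries and in 5 of 5 control granule libraries, at means of 43.98 ± 11.9 and 40.99 ± 19.2 TPM (SD, n = 5 each), but in 0 of 4 HD exosome libraries and 1 of 5 control exosome libraries. FDFT1 had the highest mean in HD exosomes, at 32.9 ± 21.4 TPM (SD, n = 4), and in control exosomes, at 30.0 ± 4.51 TPM (SD, n = 5). It was the most abundant in 3 of 4 HD exosome libraries. In control exosomes FDFT1 was the most abundant in 2 of 5 libraries and INSIG1 also in 2 of 5. FDFT1 ranked 4 in either granule group. The order in control granules ran from IDI1 over HMGCS1 (22.9 ± 7.95), INSIG1 (18.3 ± 4.53), FDFT1 (10.6 ± 3.23), SQLE (10.2 ± 2.88) and SREBF2 (5.02 ± 1.76) to DHCR7 (2.52 ± 0.652 TPM). In that group IDI1 and HMGCS1, HMGCS1 and INSIG1, and FDFT1 and SQLE did not differ beyond their SD. In HD granules the order was the same, and only IDI1 and HMGCS1 differed beyond their SD. In control exosomes FDFT1, INSIG1 (29.1 ± 3.61), IDI1 (26.6 ± 5.06) and HMGCS1 (21.7 ± 3.14 TPM) did not differ, each from the next, beyond their SD, and neither did SQLE (6.77 ± 0.897) and DHCR7 (6.22 ± 1.11 TPM). In HD exosomes no neighbours in the order differed beyond their SD. These SD are spreads between libraries and do not use the pairing of genes within a library. Within libraries several of these orders held throughout, in TPM. IDI1 lay above HMGCS1, INSIG1 above FDFT1 and SREBF2 above DHCR7 in 5 of 5 HD granule and 5 of 5 control granule libraries. HMGCS1 lay above SREBF2 in 4 of 4 HD exosome libraries, and IDI1 above HMGCS1 and SQLE above DHCR7 in 5 of 5 control exosome libraries.

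Ratios between enzymes of 1 library showed the same change of order without any scaling between libraries. IDI1 stood to FDFT1 as 3.86, 7.19, 1.15, 4.52 and 5.46 in HD granules 1 to 5 and as 2.54, 3.04, 4.08, 4.48 and 4.36 in control granules, in TPM. The ratio was 0.760, 1.15, 0.310 and 0.918 in HD exosomes 1, 2, 3 and 5 and 0.944, 0.760, 0.796, 0.882 and 1.06 in control exosomes. HD granule 3, the lowest granule library, was level with the highest HD exosome library, and every other granule library lay above every exosome library. SQLE stood to FDFT1, the step before it, as 0.754 to 1.16 in HD granules and 0.784 to 1.12 in control granules, against 0.187 to 0.294 in HD exosomes and 0.179 to 0.362 in control exosomes. The SQLE to FDFT1 ratios of granules and exosomes do not overlap in either state. Their size depends on the transcripts to which reads were assigned. Transcript SQLE-206, of 1879 bases against 2962 for SQLE-201, took 35.3% of SQLE reads in control granules and 1.85% in control exosomes. In CPM, which has no correction for length, SQLE and FDFT1 averaged 77.0 and 58.6 in control granules and 54.3 and 140.3 in control exosomes.

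The other 17 enzymes of the pathway were listed with earlier results of these data known. Of the 17 in control cells, 4 were called higher in granules and 9 lower, with a median log2 fold change of -1.17, against 30.0% and 32.5% of all genes tested and a median of -0.02. Among the higher enzymes were LBR, a sterol reductase of the nuclear envelope (1.31 ± 0.10), SC5D, the desaturase that makes the substrate of DHCR7 (1.60 ± 0.15), and MSMO1, a demethylating oxidase (0.54 ± 0.16). LBR stood at 269.6 ± 31.0 CPM in control granules against 103 ± 8.72 CPM in control exosomes (SD, n = 5 each), and SC5D at 247 ± 55.2 against 77.7 ± 8.01 CPM. The 9 lower enzymes included PMVK and MVD, both cytosolic or peroxisomal enzymes of the mevalonate steps (-2.13 ± 0.24 and -1.93 ± 0.40) and NSDHL, a sterol dehydrogenase (-1.67 ± 0.14). NSDHL stood at 9.82 ± 1.09 CPM in control granules against 29.8 ± 4.34 CPM in control exosomes. With the GC trend removed 4 were higher and 11 lower, where 4647 and 4324 of all genes were, against 4431 and 4796 with the trend kept. Here and below, such counts of all genes under other settings are not shares. The number of genes tested can change with the setting.

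In HD-induced cells 3 of these 17 enzymes were called higher in granules and 5 lower, against 11.9% and 5.77% of all genes tested. SC5D stood at 251 ± 73.4 CPM in HD granules (SD, n = 5) against 100.3 ± 29.2 CPM in HD exosomes (SD, n = 4), with a log2 fold change of 1.42 ± 0.35 (adjusted p = 0.0158). ACAT2, which joins the first acetyl units in the cytosol, was at -1.13 ± 0.27 (adjusted p = 0.0139), and PMVK at -1.88 ± 0.38 (adjusted p = 0.00741). SC5D was higher and ACAT2 and PMVK lower in granules in both states. Leaving out HD granule 3 gave 4 higher and 7 lower, where 2942 and 2404 of all genes were. Leaving out the shallow or mostly unnamed libraries HD exosomes 4 and 2 as well gave 4 higher and 8 lower, where 3065 and 2693 of all genes were. With all libraries, 1720 of all genes were higher and 833 lower.

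**Figure D3:**
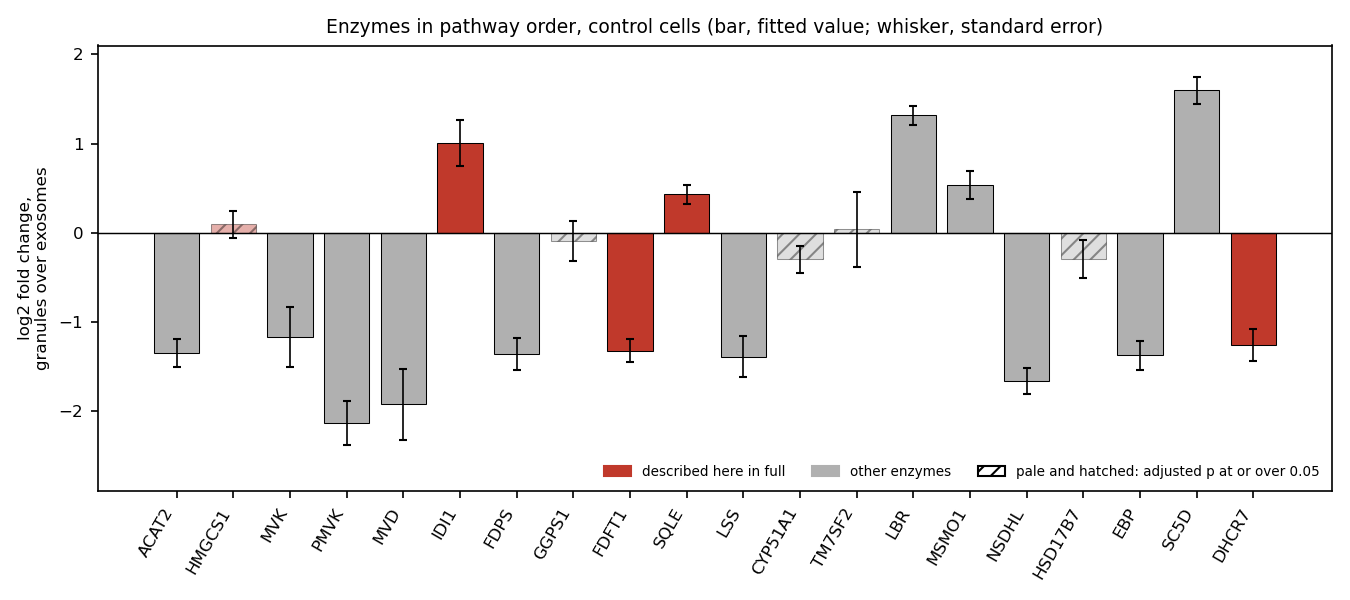
Log2 fold change, granules over exosomes in control cells (vertical axis), of 20 enzymes of cholesterol synthesis in pathway order; bars are fitted values, whiskers standard errors, red bars the 5 enzymes described in full, and pale hatched bars those with an adjusted p of 0.05 or more. The highest bars are those of SC5D (1.60), LBR (1.31) and IDI1 (1.01), and MSMO1 (0.54) and SQLE (0.43) were also called higher. The lowest bars are those of PMVK (-2.13) and MVD (-1.93).

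Of 12 genes of sterol sensing and SREBP processing, 5 were higher and 4 lower in control granules, where 30.0% and 32.5% of all genes were, and 4 were higher and 0 lower in HD granules, where 11.9% and 5.77% were. INSIG2, the second anchor of SCAP, stood at 72.5 ± 16.7 CPM in control granules against 18.1 ± 3.19 CPM in control exosomes, a log2 fold change of 1.92 ± 0.18 (adjusted p = 2.62e-06), and at 1.93 ± 0.44 in HD-induced cells (adjusted p = 0.0115). This contrasts with INSIG1, which was called in neither state. MARCHF6, an ER ubiquitin ligase that marks SQLE for degradation, was at 1.07 ± 0.09 in control cells and 1.45 ± 0.31 in HD-induced cells. RNF139, an ER ubiquitin ligase, and UBXN8 were also higher in HD granules, at 1.28 ± 0.30 and 1.26 ± 0.37. UFD1 (-1.40 ± 0.13) and NPLOC4 (-1.59 ± 0.15), partners of the ATPase that extracts ubiquitinated ER proteins, were lower in control granules. Without HD granule 3, 4 of the 12 were higher and 2 lower in HD granules, where 2942 and 2404 of all genes were.

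For comparison with mRNAs that are also translated at the ER but lie outside the pathway, 20 genes of ER chaperones, translocon and glycosylation were counted. Of these, 15 were higher and 2 lower in control granules, with a median of 0.76, and 6 were higher and 0 lower in HD granules. In control granules 30.0% of all genes tested were higher and 32.5% lower, and in HD granules 11.9% and 5.77%. These shares apply to the lists below too, and a count near them does not set a list apart. HSP90B1, an ER chaperone, stood at 1652 ± 400.3 CPM in control granules against 271 ± 85.5 CPM in control exosomes (2.54 ± 0.23), and PDIA3, a disulfide isomerase, at 331 ± 18.9 against 119 ± 13.0 CPM (1.41 ± 0.10). Fatty acid synthesis, which SREBPs also drive, had 1 gene higher and 5 lower of 11 in control granules, among them the citrate lyase ACLY (-1.90 ± 0.16) and the synthase FASN (-1.72 ± 0.33), and 0 called in HD granules. Of 10 tested genes of uptake and transport, 2 were higher and 4 lower in control granules, including SCARB1, a lipoprotein receptor (-1.10 ± 0.20), and LIPA, the lysosomal lipase (0.78 ± 0.14), and 0 were called in HD granules. Of efflux, storage and LXR genes, 1 of 5 tested was higher and 3 lower in control granules, and 1 of 6 higher and 1 lower in HD granules. SOAT1, which esterifies cholesterol for storage, was the higher one in both states (0.93 ± 0.10 and 0.91 ± 0.25), and NR1H3, which encodes LXR alpha, was lower in both (-1.71 ± 0.26 and -1.62 ± 0.53).

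The transcripts that made up each gene's reads also differed between the compartments. The share of the most abundant transcript was lower in all 5 control granule libraries than in all 5 control exosome libraries for 3 of the 7 genes (HMGCS1, SQLE and INSIG1) and higher for 0, against 17.0% and 6.91% of 10503 genes. In HD-induced cells this held for HMGCS1 alone, against 10.8% of 7525 genes lower. For HMGCS1, transcript HMGCS1-202 took 84.4 ± 4.25% of reads in HD granules and 86.2 ± 1.48% in control granules, against 98.5 ± 1.27% in HD exosomes and 96.9 ± 1.21% in control exosomes (SD, n = 5, 5, 4 and 5). Transcripts that the annotation calls retained introns took 10.9 ± 3.03% and 8.85 ± 1.74% of HMGCS1 reads in HD and control granules, against 0.869 ± 0.587% and 1.49 ± 1.00% in HD and control exosomes. These shares come from the authors' assignment of reads to transcripts that share most of their exons, so they are estimates with no counting interval.

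For INSIG1, the second transcript was INSIG1-203. It took 22.4, 44.97, 1.58, 56.8 and 60.6% of INSIG1 reads in HD granules 1 to 5 and 22.1, 18.7, 30.9, 41.1 and 37.6% in control granules. It took 0, 14.3, 0 and 21.4% in HD exosomes 1, 2, 3 and 5 and 0, 0, 0, 1.504 and 9.13% in control exosomes. The control groups do not overlap. In HD-induced cells they do, with HD granule 3 below 2 of the 4 HD exosome libraries. INSIG1-203 lacks an exon of 125 bases of INSIG1-201, the main transcript, and ends its second exon after 108 bases where that of INSIG1-201 has 439. The last 30 bases before (lower case) and the first 30 bases after (capitals) the exon boundary at which they differ are shown because only these joins tell both transcripts apart at that exon. They were read from GENCODE release 29, build GRCh38, plus strand; the right-hand exon starts at chr7:155302251.
INSIG1-203, from chr7:155298337-155298366 to chr7:155302251-155302280: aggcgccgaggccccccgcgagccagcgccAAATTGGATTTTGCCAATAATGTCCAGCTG
INSIG1-201, from chr7:155301661-155301690 to chr7:155302251-155302280: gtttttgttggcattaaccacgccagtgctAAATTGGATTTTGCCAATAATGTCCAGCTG
INSIG1-203 also carries a coding exon of 71 bases that INSIG1-201 lacks and that INSIG1-206 shares.
INSIG1-203 exon, chr7:155303825-155303895: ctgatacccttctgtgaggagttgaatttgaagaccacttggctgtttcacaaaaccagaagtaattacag
INSIG1-206 itself took 1.74 ± 3.73% in HD granules and 0.145 ± 0.126% in control granules, against 3.35 ± 4.06% in HD exosomes and 5.63 ± 1.83% in control exosomes.

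SQLE-206 took 28.0, 52.2, 0, 60.7 and 53.9% of SQLE reads in HD granules 1 to 5 and 28.2, 17.8, 35.4, 40.9 and 54.5% in control granules. It took 1.15, 0, 0 and 20.2% in HD exosomes 1, 2, 3 and 5 and 0, 9.27, 0, 0 and 0% in control exosomes. The control groups again do not overlap, and HD granule 3, at 0, again lies with the HD exosomes. FDFT1-217 took 16.0 to 22.6% of FDFT1 reads in HD granules and 10.7 to 19.6% in control granules, against 0 to 1.93% in HD exosomes and 0 to 2.30% in control exosomes. Here HD granule 3 is with the other granules, and the compartments do not overlap in either state. FDFT1-209 had a larger mean share of FDFT1 reads than FDFT1-217 over the libraries given levels. It went the other way in control cells, at 3.20 to 11.02% in control granules against 12.1 to 18.7% in control exosomes, without overlap. FDFT1-208 took 1.43 ± 3.19% in control granules against 23.7 ± 15.1% in control exosomes, with overlap. In HD-induced cells FDFT1-209 took 5.74 ± 2.08% in HD granules against 20.04 ± 31.6% in HD exosomes, and FDFT1-208 0.243 ± 0.346% against 19.4 ± 24.1%. DHCR7-205 took 21.5 ± 15.3% in HD granules and 22.0 ± 13.2% in control granules, against 0.513 ± 1.03% in HD exosomes and 3.32 ± 4.11% in control exosomes. The control groups overlap, with 8.23% the lowest in granules and 9.35% the highest in exosomes. The main transcript DHCR7-201 took 0% in control exosome 1, HD exosome 2 and HD exosome 3. There DHCR7-202 took 92.8%, DHCR7-220 100% and DHCR7-202 75.8%, so the assignment of DHCR7 reads varied strongly between exosome libraries. For IDI1, the main transcript IDI1-206 took 77.6 ± 6.81% and 80.5 ± 2.45% in HD and control granules, against 88.9 ± 9.81% and 84.6 ± 5.28% in HD and control exosomes, and the groups overlap. SREBF2-201 took 71.8 ± 14.8% and 79.8 ± 11.4% in HD and control granules, against 83.5 ± 13.3% and 94.5 ± 4.10% in HD and control exosomes, with overlap in both states.

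**Figure D4:**
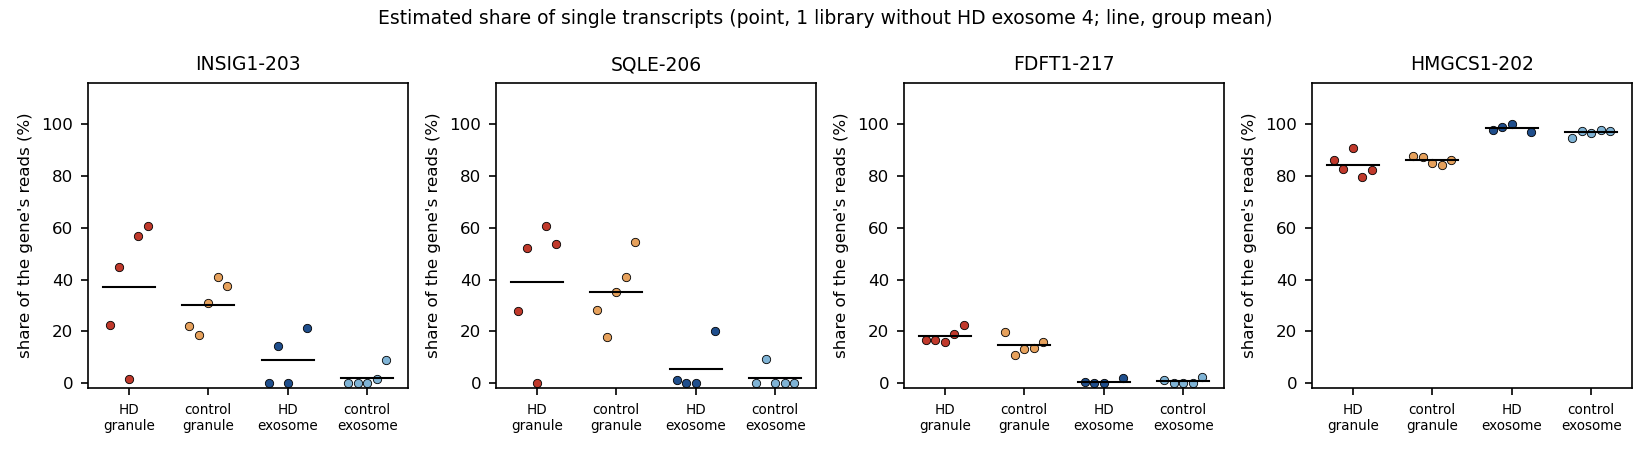
Estimated share of a gene's reads (vertical axes, percent) on INSIG1-203, SQLE-206, FDFT1-217 and HMGCS1-202 in HD granules, control granules, HD exosomes and control exosomes; points are libraries without HD exosome 4 and lines are group means. The first 3 transcripts take 10.7% or more in every control granule library and 9.27% or less in every control exosome library, and HMGCS1-202 takes 94.9% or more in every exosome library plotted.

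The second comparison set HD-induced against control cells within each compartment. None of the 7 mRNAs was called in exosomes or in granules. At this threshold 0.0% of 12936 genes were called in exosomes and 0.0% of 16750 in granules, with edgeR; 980 (7.58%) and 215 (1.28%) had an unadjusted p under 0.05, and DESeq2 called 0 and 4. None of the 7 had an unadjusted p under 0.05 in either compartment, and HD and control libraries overlapped for every one; they did not overlap for 1.71% of genes in exosomes and 0.316% in granules. Without HD exosome 1, 497 genes but none of the 7 were called in exosomes. The largest differences were those of DHCR7 in granules, at 0.60 ± 0.49 on the log2 scale, and SREBF2 in exosomes, at -0.57 ± 0.30 (adjusted p = 0.598). DHCR7 averaged 31.4 ± 30.3 CPM in HD granules against 21.0 ± 3.05 CPM in control granules (SD, n = 5 each), and 4 of the 5 HD libraries lay between 13.6 and 23.9 CPM. Without HD granule 3 the HD effect in granules came to -0.22 ± 0.20 for DHCR7 and -0.43 ± 0.34 for SREBF2, against 0.18 with it, neither of them called. SREBF2 averaged 90.0 ± 45.7 CPM in HD exosomes (SD, n = 4) against 136 ± 29.6 CPM in control exosomes (SD, n = 5).

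The intervals show what size of difference these libraries allow. In granules the 95% interval of the HD effect on the log2 scale was -0.22 to 0.45 for FDFT1, -0.18 to 0.43 for SQLE, -0.29 to 0.54 for INSIG1 and -0.42 to 0.66 for HMGCS1, so a change of 1 on the log2 scale, a doubling or a halving, lies outside it for these 4. For IDI1 (-0.66 to 1.30), DHCR7 (-0.49 to 1.68) and SREBF2 (-0.89 to 1.25) a rise of that size lies inside. For DHCR7 and SREBF2 this rests on HD granule 3, without which the intervals are -0.66 to 0.23 and -1.19 to 0.33 and a rise of that size lies outside, while for SREBF2 a fall of that size then lies inside. In exosomes the intervals were -0.27 to 0.50 for FDFT1, -0.41 to 0.38 for SQLE, -0.54 to 0.30 for INSIG1, -0.38 to 0.58 for HMGCS1, -0.70 to 0.48 for IDI1, -0.92 to 0.24 for DHCR7 and -1.21 to 0.07 for SREBF2. A fall of 1 is inside only for SREBF2, and HD exosome 4, with 713 reads, is in these fits.

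**Figure D5:**
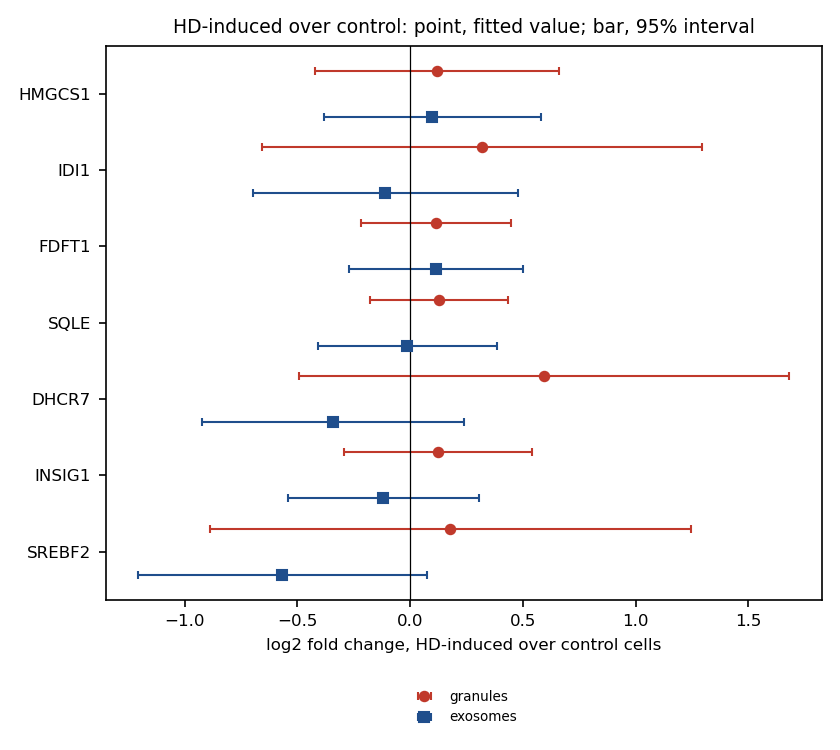
Log2 fold change of each mRNA, HD-induced over control cells (horizontal axis), in granules (circles) and exosomes (squares), with 95% intervals. Every interval includes 0, and the widest are those of DHCR7, SREBF2 and IDI1 in granules.

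The third comparison asked whether the HD effect differed between compartments, as an interaction term over all 20 libraries. It was called for 3 of 16154 genes (0.0186%) and for 0 of the 7; 778 genes (4.82%) had an unadjusted p under 0.05, and DESeq2 called 17. The differences, granules minus exosomes, ran from 0.05 ± 0.22 for FDFT1 to 1.00 ± 0.59 for DHCR7 (adjusted p = 0.875), with 0.81 ± 0.60 for SREBF2. Without HD granule 3 they were 0.16 ± 0.35 for DHCR7 and 0.17 ± 0.48 for SREBF2. The other enzymes and regulators gave no call either, in this or the HD comparisons: among the 17 enzymes the smallest unadjusted p stood at TM7SF2 in exosomes, at 7.20 ± 3.95 CPM in HD exosomes against 14.1 ± 2.90 CPM in control exosomes (-0.89 ± 0.36, adjusted p = 0.598), and at NSDHL in granules, at 12.2 ± 2.70 CPM in HD granules against 9.82 ± 1.09 CPM in control granules (0.31 ± 0.20, adjusted p = 1).

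Finally, the genes closest in pattern to the mean standardised log2 level of the 7 mRNAs over 19 libraries were EMG1 (Pearson r = 0.673), SWI5 (0.643), SGMS1 (0.640), QTRT2 (0.627) and COMMD1 (0.614), of 10966 compared. The 7 did not share 1 pattern: the log2 levels of HMGCS1 and IDI1 ran against those of SREBF2 and DHCR7 (r = -0.81 for HMGCS1 with SREBF2 and -0.82 for IDI1 with DHCR7), and FDFT1 against SQLE (-0.81), so their mean mixes opposite patterns. This is a description of libraries that share compartment, depth and base composition, and with HD exosome 4 included 0 of the 5 remained among the closest.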

How the data were processed

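Total RNA was sequenced from 20 libraries in 4 groups of 5. Per the submitters' processing notes, the authors used Trimmomatic, cutadapt, FastQC and Salmon with build GRCh38.p14; versions and settings are not used here. The deposited files give, for each transcript, an expected count of reads and a TPM value, both from Salmon as the authors ran it. Of 921552 entries, 669597 carry no gene name and were left out. Expected counts were summed per gene (62266 genes), rounded and filtered with filterByExpr, and fitted with edgeR 4.0.16 (R 4.3.3; TMM, robust quasi-likelihood), with Benjamini-Hochberg adjustment over all genes tested; limma 3.58.1 and DESeq2 1.42.0 served as alternatives. Standard errors were taken from the fold change and F value, and intervals are 95%. Printed CPM use TMM factors of 19 libraries, without HD exosome 4. The fits were tested on simulated counts. In granules against exosomes of HD-induced cells, same-numbered libraries deviated together (4 of 4 pairs, correlations 0.149 to 0.321), so the replicate block is given where it changes a call. The 7 genes and all gene lists were chosen with earlier results of these data known. Beyond the 7, up to 4 genes a list are named per comparison, those with the lowest p, with further enzymes added after their values were seen. Results of some genes of the lists are not reported here, though the counts include them. Where nothing shows separate cultures, p-values measure only the spread between these samples.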

Additional observations from a re-analysis of the deposited data

Results flagged for a closer look

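IDI1 in control exosomes had 1 library far from the others: control exosome 5 stood at 158.5 CPM, the next highest at 115 CPM. Its gap to that library was 0.769 of the group's range on the log2 scale, above Dixon's critical value of 0.710 for 5 samples. The 7 genes gave 28 groups tested in this way, and chance alone flags about 1 in 20. Without control exosome 5, IDI1 was at 1.11 on the log2 scale in control granules over control exosomes and stayed called (edgeR, adjusted p = 0.00469).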

How the results depend on the processing

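Over 749 values of the 7 genes under alternative settings, 667 kept their direction and side of the threshold, 14 lost a call, 11 gained one and 57 changed sign; except where a value or the setting itself shows it, the cause was not tested. For control granules over control exosomes, removing the GC trend gave HMGCS1 -0.40 and SQLE -0.15, and protein-coding transcripts alone gave INSIG1 0.044. For HD granules over HD exosomes, DESeq2 gave DHCR7 0.014 and SREBF2 0.086, the GC correction HMGCS1 -0.14, DHCR7 0.008 and SREBF2 0.14, relative log expression factors SREBF2 0.043, and limma on TPM DHCR7 0.085 and SREBF2 0.18. The genes called there numbered 110 with limma, 4244 without a filter, 4006 with the replicate block, 6027 with voom weights and 5758 without HD exosomes 2 and 4 and HD granule 3, against 2553. Members called were 0 with limma, 5 with voom and 1 without HD exosomes 2 and 4, against 2. In limma on TPM, HD exosome 4 weighed as much as any other library.

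For HD over control exosomes, HMGCS1 was at -0.16 with the GC correction, -1.32 with limma, -0.020 without a filter and -0.029 without HD exosomes 2 and 4, FDFT1 at -0.0004 without a filter and SQLE at 0.029 without HD exosomes 2 and 4; limma called 2 genes, no filter 275 and the replicate block 296, against 0. For HD over control granules, SREBF2 was at -0.0053 with the GC correction, -0.12 with the block and -0.65 with voom, and DHCR7 at -0.31 with voom; DESeq2 called 4 genes and voom 5, against 0. For the interaction, FDFT1 was at -0.55 with limma, -0.0175 with protein-coding transcripts, -0.048 without HD exosomes 2 and 4 and -0.089 without HD granule 3 as well, where DHCR7 was at -0.0074 and SREBF2 at -0.0116. HMGCS1 was at -0.0039 with protein-coding transcripts, and voom gave DHCR7 -0.11 and SREBF2 -0.13. DESeq2 called 17 genes, protein-coding transcripts 0 and the GC correction, limma and the block 1 each, against 3.

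Leaving out 1 library at a time, control granules against exosomes kept 5 of the 7 called (8626 to 9544 genes in all), and HD granules against exosomes had 1 to 4 (1.2e+03 to 5346 genes, the most without HD granule 3), with DHCR7 at -0.99 to 0.11 and SREBF2 at -0.75 to 0.31. None of the 7 was called in HD over control exosomes (0 to 497 genes), in granules (0 to 1) or in the interaction (1 to 28). In exosomes HMGCS1 ranged from -0.037 to 0.22, IDI1 from -0.30 to 0.12 and SQLE from -0.11 to 0.039; in granules IDI1 from -0.0066 to 0.57, INSIG1 from -0.054 to 0.22, DHCR7 from -0.22 to 0.78 and SREBF2 from -0.43 to 0.41; in the interaction FDFT1 from -0.020 to 0.12 and HMGCS1 from -0.057 to 0.22. Outside HD granules against exosomes, replicate numbers paired the libraries only in part, with 2 of 5, 2 of 4 and 3 of 5 pairs above 0.1. In HD over control granules the correlations ran from -0.147 to 0.536, so a lack of pairing is not shown. The block left 9297 genes and 5 of the 7 called in control granules against exosomes and changed no call of the 7 beyond SQLE. Of the 5 genes nearest in pattern, 0 were shared over all 20 libraries and 3 after centring within groups. Upper-quartile factors could not be fitted where HD exosomes enter. Depth limits the HD exosomes most.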

Other observations

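Entries next to or related to the 7 genes carried few reads. Over all libraries, IDI2-AS1, antisense to the IDI1 paralog, held 840 reads, INSIG1-DT held 27, all of them in 1 library, and MIR33A, which lies within SREBF2, SQLE-DT and SREBF2-AS1 were listed at 0.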
